A study of Mus musculus with 4 samples.

Results

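The cytosolic ribosomal protein genes were followed in primary mouse embryonic fibroblasts that had received an siRNA against Xpo5. Members were chosen by name, as every gene whose symbol on the array begins Rpl or Rps followed by a digit, with Rplp0, Rplp1, Rplp2 and Rpsa, and without the kinases named Rps6k. The rule found 85 of 28095 gene names, on 142 of 41174 probes. They are 43 large-subunit genes, 31 small-subunit genes, 3 stalk genes, 7 paralogs of other members, and Rps19bp1, which shares the prefix but encodes a binding partner of a ribosomal protein. Each gene was read from its probe with the highest mean signal, and 84 of the 85 had a probe that passed the filter on dim signals.

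The fibroblasts were wild-type cells of C57BL/6 mice. In the Xpo5 siRNA group they received 60 nM of siRNA against Exportin-5, the product of Xpo5, and in the control siRNA group 60 nM of a negative control siRNA. Cells of both groups were transfected for 12 h, kept in 0.2% fetal calf serum for 48 h, and given 20% serum for 24 h together with a second transfection. Each group held 2 samples from 2 independent experiments, each read on a 1-colour Agilent array. An siRNA lowers its target without deleting it. Whether the experiments drew on separate embryos is not given, so p values measure only how far these samples spread.

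A ribosome is built from RNA and a fixed set of proteins. Its small subunit reads the messenger RNA, its large subunit joins the amino acids, and the stalk of the large subunit recruits the factors that drive elongation. The genes of these proteins are among the most strongly transcribed in dividing cells. Their messenger RNAs usually begin with a run of pyrimidines, through which growth signals such as serum control their translation. Exportin-5 carries precursors of microRNAs out of the nucleus.

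Signals here are log2 values with the 75th percentile of each array subtracted. Xpo5 read -2.03 and -2.02 with Xpo5 siRNA, against 1.22 and 1.17 with control siRNA. The difference was -3.21 ± 0.13 (SE, 2 arrays per group), with an adjusted p of 0.0225 in limma, and the signal was 10.8% of that in control. The call was lost, with the difference at -2.54 or below, with the slide as a block (adjusted p = 0.0513 in limma), without the filter (0.348), with the mean of the probes (0.189) or the second brightest one (0.162), and when replicate 1 (0.116) or replicate 2 (0.0981) of Xpo5 siRNA was left out. The arrays had 62.4% to 65.0% of spots well above background, and 0 were saturated. All 10 fibroblast markers were well above background on the 4 arrays. The 6 macrophage markers on the array were as well, with list medians of -1.57 and -1.88 with Xpo5 siRNA against -2.28 and -2.93 with control siRNA. Those 6 were all higher with Xpo5 siRNA, by a median of 0.70, and their part in the results was not tested. Of the 4 endothelial markers 2 were well above background on all 4 arrays and 2 on none, as with the 4 epithelial and the 4 muscle markers. Of the 3 adipocyte markers 1 was well above background on all 4 arrays and 2 on none. The 2 neural markers on the array were well above background on all 4 arrays. Their list medians were 0.40 and 0.30 with Xpo5 siRNA against 0.05 and -0.14 with control siRNA, and 1 of the 2 was higher with Xpo5 siRNA. Fewer cells of a type and less RNA per cell cannot be told apart in these samples.

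The ribosomal protein genes differed little between the siRNAs. The median of the 84 fitted differences, Xpo5 siRNA minus control siRNA, was 0.018 on the log2 scale, and that of all 16922 genes tested was 0.017. Differences ran from -0.51 for Rpl7l1 to 0.37 for Rplp1. In limma with the Benjamini-Hochberg adjustment 0 of the 84 passed at 0.05, where 2 of all genes did (0.0118%). At an unadjusted p under 0.05 there was 1 of 84, Rpl7l1, against 13.2% of all genes. With the replicate number as a block 0 of 84 passed as well, where 5 of all genes did (0.0295%), and 2 of the 84 had an unadjusted p under 0.05, against 25% of all genes. The median size of the difference, with its sign dropped, was 0.07 for the 84 and 0.19 for all genes. The 716 other genes whose probes were at least as bright as the 10th percentile of the members had a median size of 0.12. Median SEs were 0.144 for the 84, 0.150 for the 716 and 0.163 for all genes. The part of brightness in these sizes was not tested. Of those 716, 4.89% had an unadjusted p under 0.05, and 12.7% with the block.

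The sign of the median depended on how the arrays were scaled. With the 75th percentile 49 of the 84 were higher with Xpo5 siRNA, and with the median as the scale 18 were, since that scaling moved the median of all genes to -0.10. Counted against the median of all genes, 42 of the 84 lay above it under both scalings. Quantile normalization put 37 of the 84 above it and normexp background correction 32. Leaving out 1 array at a time gave a median of -0.024 when replicate 1 of Xpo5 siRNA was dropped and 0.074 for its replicate 2. The median was 0.093 when replicate 1 of control siRNA was dropped and -0.035 for its replicate 2.

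Each 95% interval was fitted for its gene alone at these sample numbers, so the intervals do not together bound every difference. The intervals and the counts below are for the scaling in which signals are given here. Median scaling moved the median of the 84 differences from 0.018 to -0.10. Whether the counts hold with median scaling was not tested. The median half-width of the interval was 0.37 for the 84 genes and 0.42 for all genes. All 84 intervals lay within 2-fold in either direction, against 81.9% of all genes. Within 1.5-fold lay 74 of the 84 intervals (88.1%), against 39.6% of all genes. Of the 716 other bright genes, which were dimmer than the members as a set, 62.7% had intervals within 1.5-fold. A gene with an interval across 0 is not thereby shown to be equal in the 2 groups.

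**Figure D1:**
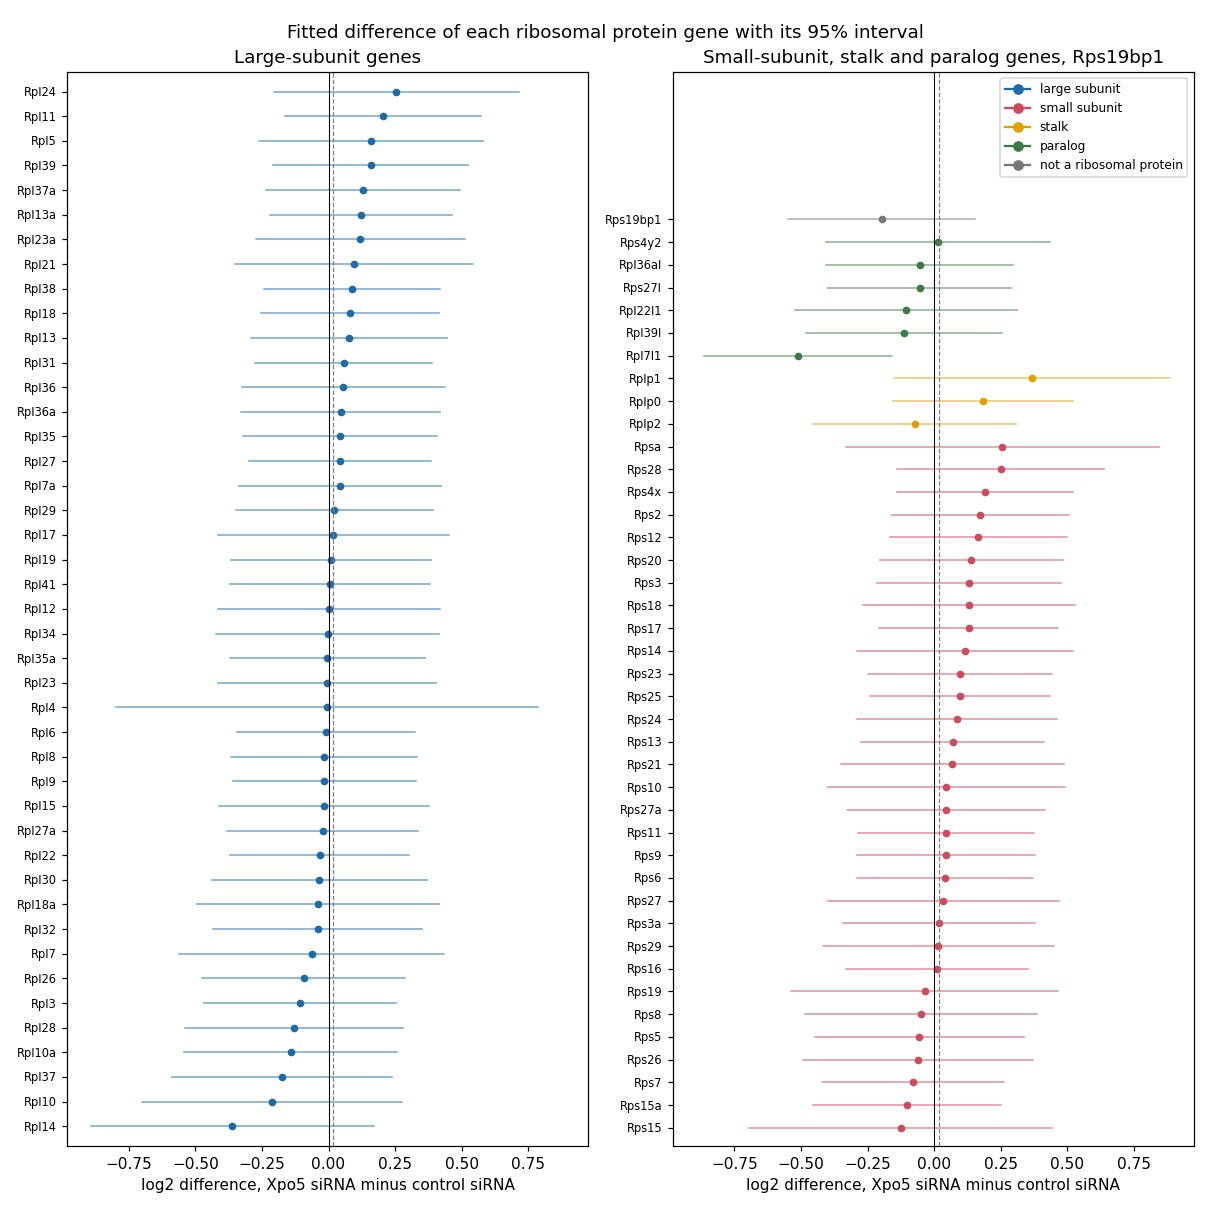
Each row is 1 ribosomal protein gene, with the fitted log2 difference, Xpo5 siRNA minus control siRNA, as a point and its 95% interval from limma as a line (n = 2 arrays per group). The solid line marks 0, the dashed line the median of all genes tested at 0.017, and only the interval of Rpl7l1 does not include 0.

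In their medians the members differed more between replicates than between siRNAs. Measured from each gene's own mean over the 4 arrays, the 84 genes had a median of 0.06 on replicate 1 and -0.03 on replicate 2 of Xpo5 siRNA, against 0.06 on replicate 1 and -0.08 on replicate 2 of control siRNA. Replicate 1 was above replicate 2 for 62 of the 84 genes with Xpo5 siRNA (73.8%, against 57.5% of all genes) and for 69 of the 84 with control siRNA (82.1%, against 59.9% of all genes). The 716 other bright genes gave 73.0% with Xpo5 siRNA and 71.4% with control siRNA. The array of replicate 2 of control siRNA was the lowest of the 4 for 45 of the 84.

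The median difference was small within each experiment, while single genes could differ between the 2 experiments. Over the 84 genes their differences correlated at Pearson r = 0.417, against 0.524 over all genes. Replicate numbers were read as the experiments, which the labels leave unstated. The median difference was 0.01 between the arrays numbered 1 and 0.04 between those numbered 2, and 54 of the 84 genes (64.3%) had the same sign in both, against 70.3% of all genes. The arrays of 1 slide carried different numbers, and by slide the median difference was 0.13 on slide 1 and -0.08 on slide 2. All genes gave 0.05 and -0.03 there, and the 716 other bright genes 0.11 and -0.10. Rpl4 and Rpl5, singled out after their values were seen, changed sign between the experiments. Rpl4 read 3.98 and 4.19 with Xpo5 siRNA against 3.67 and 4.51 with control siRNA, the widest interval among the 84.

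**Figure D2:**
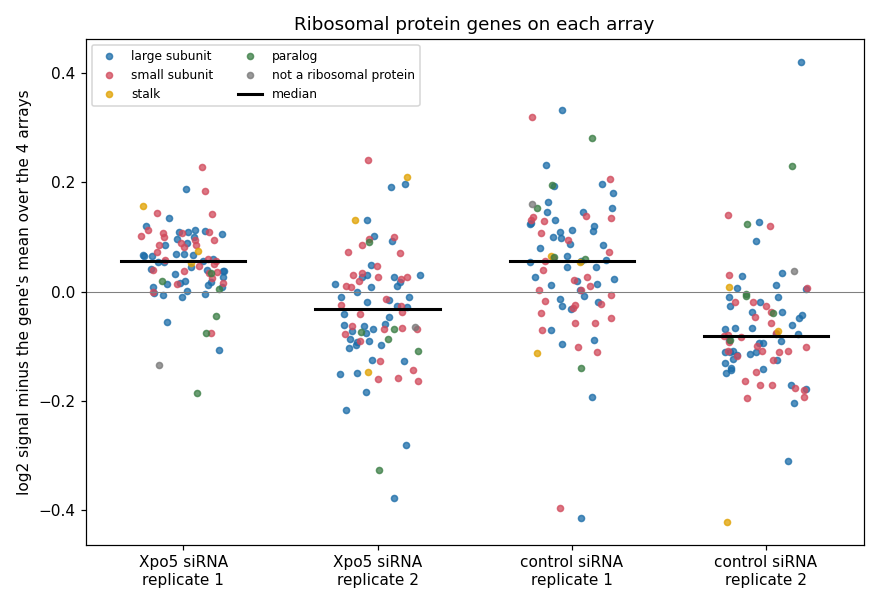
Each point is 1 of the 84 ribosomal protein genes on 1 array, as its log2 signal minus the gene's mean over the 4 arrays, and the black bar is the median of the 84. The bars lie at 0.06 and -0.03 with Xpo5 siRNA and at 0.06 and -0.08 with control siRNA, so that the replicates differ within each group.

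**Figure D3:**
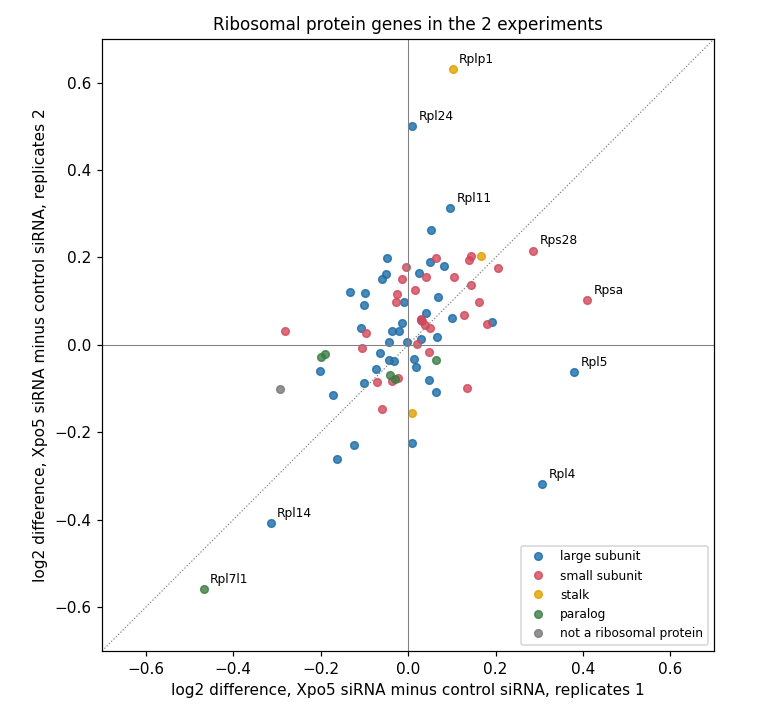
The log2 difference, Xpo5 siRNA minus control siRNA, between the replicate 1 arrays is on the x axis and between the replicate 2 arrays on the y axis, with 1 point per gene and a dotted line where they are equal. Rpl7l1 and Rpl14 are lowest in both, Rplp1 and Rpl24 are high mainly in the second, and Rpl4 and Rpl5 differ in sign.

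The large-subunit genes had a median difference of 0.0018, with 22 of the 43 higher and 21 lower with Xpo5 siRNA. The median was -0.057, with 13 higher, when replicate 2 of control siRNA was left out and 0.091, with 32 higher, when its replicate 1 was. It was -0.030 when replicate 1 of Xpo5 siRNA was left out and 0.060 for its replicate 2. None had an unadjusted p under 0.05 without the block. Groups did not overlap for 8 that were higher and 1 that was lower, where 24.9% of all genes were higher and 21.2% lower without overlap. Rpl14, a large-subunit protein, was the lowest. It read 2.50 and 2.10 with Xpo5 siRNA, against 2.81 and 2.51 with control siRNA. Both control arrays were above both Xpo5 siRNA arrays, at the nearest pair only narrowly. The difference was -0.36 ± 0.20 (SE, limma adjusted p = 0.515), with a 95% interval from -0.89 to 0.17. The replicate block gave an unadjusted p of 0.0258 and an adjusted p of 0.152 in limma.

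Rpl10, which joins the large subunit late in its assembly, read 7.52 and 7.17 with Xpo5 siRNA, against 7.68 and 7.43 with control siRNA. The groups overlapped, and the difference was -0.21 ± 0.19 (SE, limma adjusted p = 0.671). The files place this probe on chromosome 8 of mm9, at positions 96747278 to 96747337, while the gene and its other probe lie on X, where the difference was -0.12. The brightest probes of 3 of the 84 genes are placed on another chromosome than the gene, and many ribosomal protein genes have processed copies elsewhere in the genome. Rpl37 read 7.88 and 7.62 with Xpo5 siRNA, against 8.0 and 7.85 with control siRNA, a difference of -0.18 ± 0.16 (SE) with overlapping groups.

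At the other end, Rpl24, which forms a bridge to the small subunit, read 6.71 and 6.84 with Xpo5 siRNA, against 6.70 and 6.34 with control siRNA. Its difference was 0.25 ± 0.18 (SE, limma adjusted p = 0.585), and nearly all of it came from replicate 2, with 0.50 there and 0.01 in replicate 1. The other Rpl24 probe, nearly as bright, differed by 0.02 ± 0.18 (SE). Rpl11, which with Rpl5 binds the smallest RNA of the large subunit and, when free, the p53 regulator Mdm2, read 8.06 and 8.24 with Xpo5 siRNA, against 7.96 and 7.93 with control siRNA. Groups did not overlap, and the difference was 0.20 ± 0.14 (SE, limma adjusted p = 0.581). The other Rpl11 probe, 8.1 log2 units dimmer, differed by -0.12 ± 0.16 (SE). Rpl39, a short protein lining the tunnel through which new chains leave, read 7.82 and 7.85 with Xpo5 siRNA, against 7.77 and 7.58 with control siRNA. Its difference of 0.16 ± 0.14 (SE) had a limma adjusted p of 0.671. Rpl21, read by the dimmest probe used for a large-subunit gene, had a difference of 0.09 ± 0.17 (SE) with overlapping groups, and its other probe differed by -0.12 ± 0.15 (SE).

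The small-subunit genes had a median difference of 0.045, with 24 of the 31 higher and 7 lower with Xpo5 siRNA, a split that became 9 higher under median scaling. The median ran from 0.019, with 17 higher, when replicate 2 of control siRNA was left out to 0.13, with 27 higher, when its replicate 1 was. It was 0.031 when replicate 1 of Xpo5 siRNA was left out and 0.11 for its replicate 2. Against the median of all genes 21 of the 31 were above, and 13 were under normexp. Groups did not overlap for 13 that were higher and 2 that were lower, 48.4% in all, where 46.1% of all genes did not overlap. None had an unadjusted p under 0.05.

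Rps28 was among the highest. It read 8.69 and 8.49 with Xpo5 siRNA, against 8.41 and 8.27 with control siRNA, and the groups did not overlap. The difference was 0.25 ± 0.15 (SE, limma adjusted p = 0.532), or 1.19-fold, and it was positive in both experiments, at 0.29 and 0.22. Other kept probes of Rps28 differed by 0.17 ± 0.16 and -0.03 ± 0.14 (SE). Rpsa, also known as the laminin receptor, read 5.75 and 5.98 with Xpo5 siRNA, against 5.34 and 5.88 with control siRNA. Its groups overlapped, and the difference was 0.26 ± 0.23 (SE, limma adjusted p = 0.669). Rps4x, encoded on X, read 7.90 and 7.90 with Xpo5 siRNA, against 7.69 and 7.72 with control siRNA. Its arrays were close within each group, and the difference was 0.19 ± 0.13 (SE, limma adjusted p = 0.572).

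Rps2, Rps12 and Rps20 were also above control on both arrays. Rps2, which lies at the entrance of the messenger RNA channel, read 9.46 and 9.49 with Xpo5 siRNA, against 9.32 and 9.29 with control siRNA, a difference of 0.17 ± 0.13 (SE). Rps12 read 9.30 and 9.31 with Xpo5 siRNA, against 9.16 and 9.11 with control siRNA, a difference of 0.17 ± 0.13 (SE). Rps20 read 9.31 and 9.23 with Xpo5 siRNA, against 9.17 and 9.09 with control siRNA, a difference of 0.14 ± 0.13 (SE). The signs of these 3 did not hold under every scaling, with values down to -0.13 for Rps2, -0.03 for Rps12 and -0.04 for Rps20. Their other kept probes differed by -0.07 ± 0.16 for Rps2, 0.03 ± 0.19 for Rps12 and 0.05 ± 0.19 for Rps20 (SE).

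The 3 stalk genes did not move alike. Rplp1, 1 of the small acidic proteins at the tip, read 9.68 and 9.73 with Xpo5 siRNA, against 9.58 and 9.10 with control siRNA. The low array was replicate 2 of control siRNA, and the groups did not overlap. The difference was 0.37 ± 0.20 (SE, limma adjusted p = 0.499), or 1.29-fold, with 0.10 in replicate 1 and 0.63 in replicate 2. It was 0.13 when the low control array was left out. Rplp0, the base to which the acidic proteins bind, read 9.41 and 9.49 with Xpo5 siRNA, against 9.24 and 9.29 with control siRNA. Its difference was 0.18 ± 0.13 (SE, limma adjusted p = 0.589), while quantile normalization gave -0.04 for this brightest probe. The 2 further probes gave 0.22 and 0.09. That with 0.09 is placed on chromosome 8 of mm9, while the gene lies on chromosome 5. Rplp2, the partner of Rplp1, read 8.83 and 8.61 with Xpo5 siRNA, against 8.82 and 8.76 with control siRNA. Its groups overlapped, with a difference of -0.07 ± 0.15 (SE).

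Paralogs of ribosomal proteins had a median difference of -0.08, with 5 of the 6 tested lower with Xpo5 siRNA. None of the 6 lay above the median of all genes with the 75th percentile as the scale, and up to 2 did under other settings. Rpl7l1, a paralog of Rpl7, had the largest difference of any member. It read 1.68 and 1.54 with Xpo5 siRNA, against 2.15 and 2.10 with control siRNA. Both Xpo5 siRNA arrays lay well below both control arrays. The difference was -0.51 ± 0.14 (SE, 95% interval -0.87 to -0.16, limma unadjusted p = 0.014, adjusted p = 0.263), or 0.701 of the control signal. It was -0.47 in replicate 1 and -0.56 in replicate 2, and the replicate block gave a limma adjusted p of 0.103. Its other probe differed by -0.37.

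The other tested paralogs had smaller differences at their brightest probes. Rpl39l, the testis-enriched paralog of Rpl39, read 1.60 and 1.58 with Xpo5 siRNA, against 1.80 and 1.61 with control siRNA, a difference of -0.11 ± 0.14 (SE), and its other probe differed by -0.42 ± 0.17 (SE). Rpl22l1, the paralog of Rpl22, read 6.60 and 6.49 with Xpo5 siRNA, against 6.79 and 6.51 with control siRNA, a difference of -0.11 ± 0.16 (SE), and its other probe differed by 0.23 ± 0.41 (SE). Rps27l, a p53 target and paralog of Rps27, differed by -0.05 ± 0.13 (SE), Rpl36al by -0.05 ± 0.14 (SE) and Rps4y2, which RefSeq names Rps4l and lists as a transcribed pseudogene, by 0.02 ± 0.16 (SE). The counterparts of the 6 tested paralogs, Rpl7, Rpl39, Rpl22, Rps27, Rpl36a and Rps4x, differed by -0.06, 0.16, -0.03, 0.03, 0.05 and 0.19. Rps19bp1, which encodes an activator of the deacetylase Sirt1, read 3.10 and 3.17 with Xpo5 siRNA, against 3.39 and 3.27 with control siRNA, a difference of -0.20 ± 0.14 (SE, limma adjusted p = 0.577) without overlap.

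Rpl3l, the paralog of Rpl3 found in striated muscle, was the member that failed the filter. It was well above background on replicate 1 of Xpo5 siRNA alone, at -4.19, and read -7.69 on replicate 2, against -8.24 and -8.30 with control siRNA. It was therefore not tested. Paralogs are close in coding sequence, so the brightest probes of 2 pairs are shown as the sequences from which the genes were read. The capitals mark the longest run that the printed probes of a pair share, 6 bases for Rpl22l1 and Rpl22 and 5 for Rpl3l and Rpl3, out of 60. The probes of a pair were not aligned and need not lie at matching places of the transcripts. The files give these mm9 positions, and a probe that spans more than its length crosses an intron.
Rpl22l1, chr3:28706197-28706256, plus strand: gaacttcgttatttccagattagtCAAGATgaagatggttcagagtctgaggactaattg
Rpl22, chr4:151704158-151704217, plus strand: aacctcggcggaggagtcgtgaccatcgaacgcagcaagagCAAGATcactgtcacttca
Rpl3l, chr17:24872413-24872681, plus strand: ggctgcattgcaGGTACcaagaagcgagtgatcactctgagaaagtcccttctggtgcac
Rpl3, chr15:79910252-79910826, minus strand: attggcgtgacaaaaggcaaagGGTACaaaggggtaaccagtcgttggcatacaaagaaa
A short shared run between 2 probes says nothing of how far each probe can bind the other gene's transcript elsewhere, and 59 of the 84 brightest probes list more than 1 RefSeq transcript.

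A gene's other probes gave a check on the brightest one. Of the 84 genes 43 had more than 1 kept probe, and in 19 of the 43 the probes had differences of both signs. The 38 other probes less than 5 log2 units dimmer than the brightest had a median difference of 0.01, from -0.42 to 0.26, in a limma fit over every kept probe. The 17 that were at least 5 log2 units dimmer, of which 13 carry no RefSeq accession, had a median of -0.12, and 12 of the 17 lay below the brightest probe of their gene. The brightest probes of the same 16 genes had a median of 0.09. Brightness differs between probes of 1 transcript and is no measure of its level.

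Disagreement between probes was widest for Rps18, whose brightest probe differed by 0.13 and whose dimmest by -0.34. The brightest Rps18 probe read 9.35 and 9.19 with Xpo5 siRNA, against 9.24 and 9.03 with control siRNA. The dimmest read -2.15 and -2.36 with Xpo5 siRNA, against -1.73 and -2.09 with control siRNA. For Rpsa the probes gave 0.26 and -0.17, for Rpl13 between 0.08 and -0.30, for Rps13 0.07 and -0.28, and for Rpl23a 0.12 and -0.22. These 5 genes were picked for the width of this disagreement. None of their probes had an unadjusted p under 0.05 in limma, so no direction was established for them. Rps4x had the only other probe with an unadjusted p under 0.05 in limma, a difference of 0.44 at a signal 11.7 log2 units below the brightest.

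**Figure D4:**
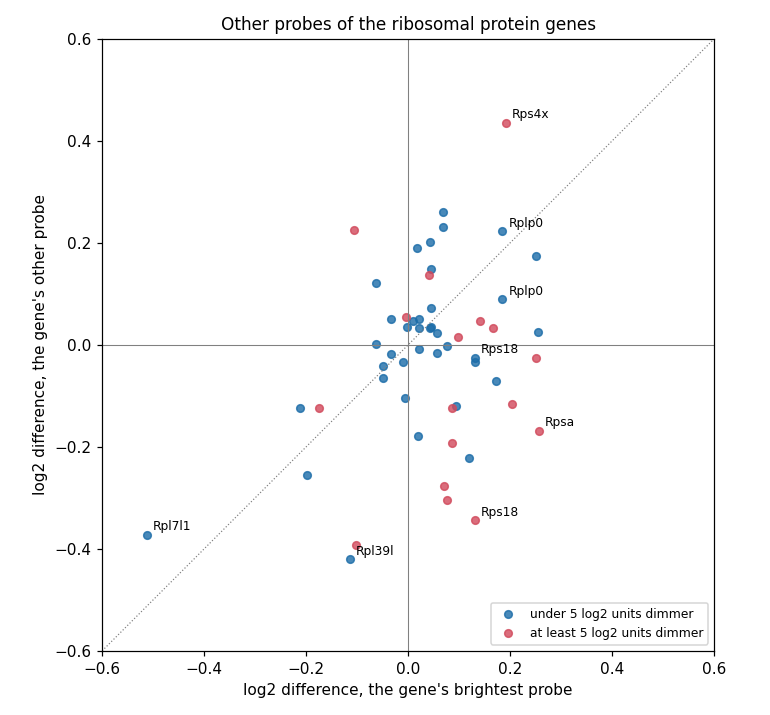
Each point is another kept probe of a ribosomal protein gene, with the log2 difference, Xpo5 siRNA minus control siRNA, of the gene's brightest probe on the x axis and of the other probe on the y axis. The red points, probes at least 5 log2 units dimmer, have a median of -0.12, the blue points one of 0.01, and Rpl7l1 is low on both axes.

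Within the 84 genes the brighter probes tended to have the higher differences. Across genes, which share the same 4 arrays and are no independent replicates, the difference correlated with the mean log2 signal at Pearson r = 0.487 and Spearman rho = 0.409 (84 genes), where all genes gave r = -0.141. Of the 21 brightest members 18 were higher with Xpo5 siRNA, with a median of 0.09, and of the 21 dimmest 8 were, with a median of -0.03. The 31 genes outside the family that were as bright as those 21 brightest members had a median of 0.15, with 27 higher. Rps2, Rplp0 and Rplp1 had the brightest probes of all members, and Rpl39l, Rpl7l1 and Rpl21 the dimmest.

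The starts of the genes were read for the pyrimidine run, as a property that the choice by name did not use. RefSeq promoter entries of GRCm38.p6 matched 64 of the 85 members. A run of at least 8 bases made only of C and T, on the gene's own strand and within 10 bases before to 20 bases from the annotated start, was present in 24 of the 64 (37.5%), against 13.0% of the 27025 genes in the table. The 24 with a run had a median difference of 0.04, with 14 higher with Xpo5 siRNA, and the 39 tested without one had 0.01, with 22 higher. Windows of 30 bases follow for the 4 lowest and the 4 highest differences among the tested members with an entry, with the longest run of C and T in capitals.
Rpl7l1, chr17:46782637-46782666, minus strand: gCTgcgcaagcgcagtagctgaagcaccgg
Rpl14, chr9:120571507-120571536, plus strand: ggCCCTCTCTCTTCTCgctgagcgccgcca
Rpl10, chrX:74270806-74270835, plus strand: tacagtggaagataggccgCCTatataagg
Rps19bp1, chr15:80264287-80264316, minus strand: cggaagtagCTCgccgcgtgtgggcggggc
Rpl11, chr4:136053374-136053403, minus strand: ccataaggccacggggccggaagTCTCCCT
Rps28, chr17:33824543-33824572, minus strand: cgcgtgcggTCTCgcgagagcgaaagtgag
Rpl24, chr16:55966265-55966294, plus strand: gctgttgctaggaaacagactgggcgCTCg
Rpsa, chr9:120127756-120127785, plus strand: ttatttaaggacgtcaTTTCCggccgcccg
Of these 8, Rpl14 alone holds a run of at least 8, with 14 bases, and the others have runs of 2 to 7. A start annotated a few bases off would miss a run, so its absence from a window describes that window alone.

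Other transcripts known to begin with a pyrimidine run lay on both sides of control. Of the 26 tested, which include translation factors, 14 were higher and 12 lower with Xpo5 siRNA, with a median of 0.015, and 0 passed. The median was -0.037 when replicate 1 of control siRNA was left out and -0.039 for its replicate 2, and -0.040 when replicate 1 of Xpo5 siRNA was left out and 0.017 for its replicate 2. Eef1a1, which delivers aminoacyl-tRNA to the ribosome, read 7.79 and 7.86 with Xpo5 siRNA, against 7.57 and 7.49 with control siRNA, a difference of 0.30 ± 0.13 (SE, limma adjusted p = 0.431). Npm1, a chaperone of ribosome assembly, differed by -0.25 ± 0.14 (SE), and the noncoding host gene Snhg1 by -0.40 ± 0.19 (SE). Eif4b, also a translation factor, differed by -0.39 ± 0.14 (SE). It alone of the 26 had an unadjusted p under 0.05 in limma (3.85%, against 13.2% of all genes). Among ribosomal proteins whose names fall outside the rule, looked up after the results were seen, Fau differed by 0.01 ± 0.18 and Gnb2l1, now called Rack1, by 0.12 ± 0.13 (SE).

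Mitochondrial ribosomal protein, translation factor and ribosome assembly genes had medians below that of all genes, where 8035 of all 16922 genes were lower with Xpo5 siRNA. Median log2 signals of these lists were 12.0, 13.0 and 11.1, against 16.7 for the 84 members. No genes of like brightness were set beside them. Of 75 mitochondrial ribosomal protein genes 53 were lower with Xpo5 siRNA and 22 higher, with a median of -0.08. Mrpl49 read 2.36 and 2.37 with Xpo5 siRNA, against 2.76 and 2.73 with control siRNA, a difference of -0.38 ± 0.13 (SE, limma adjusted p = 0.329). Mrpl12 differed by -0.34 ± 0.13, Mrpl18 by -0.35 ± 0.16 and Mrpl45 by -0.33 ± 0.16 (SE). Relative to the median of all genes the list lay between -0.13 and -0.05 with all 17 alternatives included. The number higher with Xpo5 siRNA ran from 3 to 27 over these. None of the 75 passed, and 2 had an unadjusted p under 0.05, 2.67% against 13.2% of all genes.

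Of 50 translation initiation, elongation and termination factors 37 were lower with Xpo5 siRNA, with a median of -0.10. The termination factor Gspt1 read 2.53 and 2.33 with Xpo5 siRNA, against 3.12 and 2.72 with control siRNA, a difference of -0.49 ± 0.19 (SE, limma adjusted p = 0.388). Eif5, which triggers GTP hydrolysis at the start codon, differed by -0.44 ± 0.16, Eif4b, a helicase cofactor, by -0.39 ± 0.14 and Eif4ebp2 by -0.39 ± 0.14 (SE). Relative to the median of all genes the list lay between -0.14 and -0.08 with all 17 alternatives included. The number higher with Xpo5 siRNA ran from 5 to 21 over these, and none of the 50 passed.

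Ribosome assembly and RNA polymerase I genes had a median of -0.17, with 54 of 62 lower with Xpo5 siRNA and 8 higher. The number higher ran from 1 to 19 with all 17 alternatives included, and was 19 when replicate 2 of control siRNA was left out. Nop16, a nucleolar protein, read 1.31 and 1.42 with Xpo5 siRNA, against 1.92 and 2.60 with control siRNA. Both groups were apart, and the difference was -0.89 ± 0.25 (SE, limma adjusted p = 0.28). Lyar differed by -0.51 ± 0.13, Taf1d, a subunit of the selectivity factor of RNA polymerase I, by -0.50 ± 0.13 and Rrp9, which binds the U3 small nucleolar RNA, by -0.41 ± 0.13 (SE). None passed, and 9 of the 62 (14.5%) had an unadjusted p under 0.05, against 13.2% of all genes. Relative to the median of all genes, this list lay between -0.23 and -0.15 with all 17 alternatives included, while the 84 ribosomal protein genes lay between -0.04 and 0.05.

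Regulators of ribosomal protein expression spread in both directions, with 11 of 19 lower with Xpo5 siRNA and a median of -0.07. Larp1, which binds the pyrimidine start and represses its translation, read 2.76 and 2.54 with Xpo5 siRNA, against 3.22 and 3.39 with control siRNA. The groups were apart, with a difference of -0.65 ± 0.16 (SE, limma adjusted p = 0.241). Larp4, which binds poly(A) tails, differed by -0.69 ± 0.15, the kinase gene Rps6ka3 by -0.93 ± 0.18 and Myc, a transcription factor that drives ribosome synthesis, by -0.54 ± 0.16 (SE). On the other side, picked after the values were seen, Rps6ka1 differed by 0.36, the kinase gene Mtor by 0.30 ± 0.13 (SE) and Rptor, which encodes a partner of the Mtor kinase, by 0.28. None of the list passed, and 4 of the 19 (21.1%) had an unadjusted p under 0.05, against 13.2% of all genes.

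**Figure D5:**
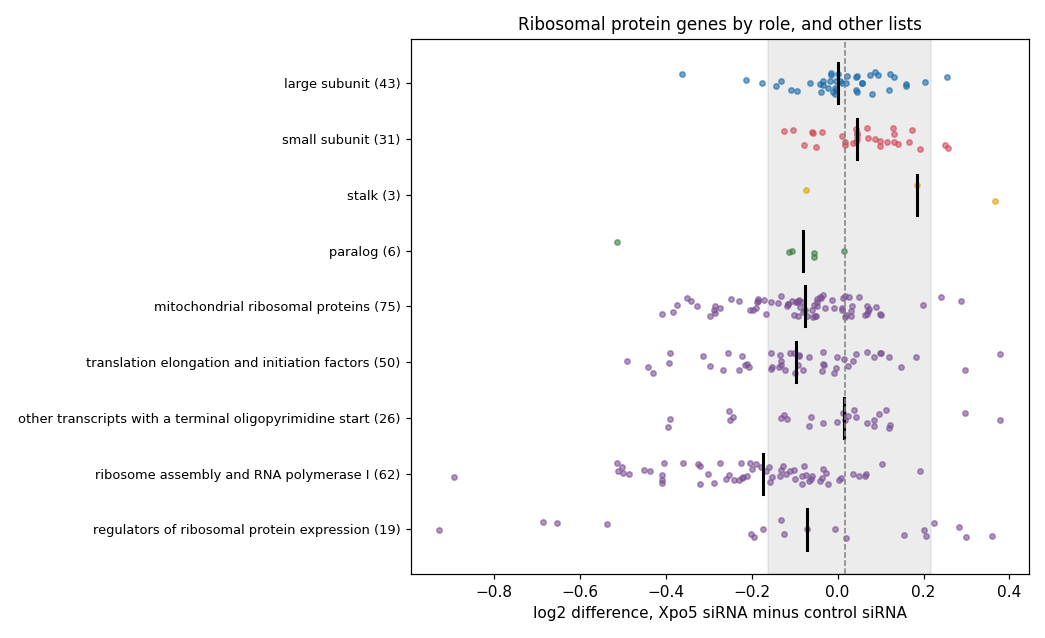
Each point is 1 gene, placed by its log2 difference, Xpo5 siRNA minus control siRNA, with the number of genes in brackets, the list median as a black bar, the median of all genes as a dashed line and the middle 50% of all genes shaded. The large- and small-subunit bars lie at 0.0018 and 0.045, and that of ribosome assembly and RNA polymerase I genes at -0.17.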

How the data were processed

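Per the file headers, Agilent Feature Extraction 10.5.1.1 gave the deposited intensity of each spot as a background-subtracted processed signal, with probe positions on mm9. The deposited series table holds log2 values that equal the log2 processed signal plus 1 constant per array, within 0.001 for 99.7% to 99.8% of probes, and served as an alternative. Outlier spots (77 to 134 per array of 43379) were left out. The log2 processed signal minus the array's 75th percentile was averaged per probe. A probe was kept if both arrays of either group read it well above background (25643 of 41174), and the probe of highest mean signal stood for its gene name, giving 16922 genes. Fits used R 4.3.3 with limma 3.58.1 (lmFit, eBayes, two-sided, Benjamini-Hochberg at 0.05, no block). With 2 against 2 arrays no exact permutation p can go below 0.333.

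Members and lists were chosen with earlier results of these data known. Named members are Xpo5, the 6 smallest p of each subunit, all stalk, paralog and other members, the 3 brightest and 3 dimmest, the 5 with the widest probe disagreement, members below the filter, and 4 of each other list. Same-numbered arrays deviated together (r = 0.419 over 16912 genes and 0.514 over the 84 members), read as the pairing of the 2 experiments. In simulated data, changes of 1, 2 and 3 on the log2 scale were recovered for 0%, 87% and 96.5% of 200 changed genes among 16912. False calls numbered 0, 16 and 16. The simulated noise was independent between arrays, without the shared deviations of same-numbered arrays.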

Additional observations from a re-analysis of the deposited data

How the results depend on the processing

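The count of ribosomal protein genes that passed was 0 under all 17 alternatives, and the lowest limma adjusted p of a named member was 0.103, with the replicate block. The count over all genes tested was 2, and it was 5 with the replicate block, 9 with quantile normalization, 12 with median scaling and with the deposited table, 1 with the intensity trend, the stricter filter or the mean of the kept probes, and 0 without the filter or with the second brightest probe. It was 0 to 16 when each array was left out in turn, with 0 without replicate 1 of Xpo5 siRNA, 1 without replicate 2 of Xpo5 siRNA, 16 without replicate 1 of control siRNA and 13 without replicate 2 of control siRNA. Pairing the arrays by replicate number in that block changed no other call named here. Median scaling and the deposited table shifted all genes by construction, to a median of -0.10. Under both, the list medians were -0.10 for all members, -0.12 for the large subunit, -0.074 for the small subunit, 0.066 and 0.065 for the stalk, -0.20 for paralogs, -0.19 for mitochondrial ribosomal proteins, -0.10 for other pyrimidine-start transcripts and -0.29 for ribosome assembly. Translation factors were at -0.21 with median scaling and -0.22 with the deposited table, and regulators at -0.19 and -0.17. The stalk median was 0.10 with normexp and -0.043 with quantile normalization, and the cause was not tested. With the second brightest probe ribosome assembly was at -0.12 and regulators at -0.18, since other probes were read. The paralog median was -0.15 to -0.020 with each array left out. The Xpo5 difference lay between -3.33 and -2.54 over all settings, with limma adjusted p from 0.00124 to 0.348, and missed 0.05 with the slide block, without the filter, with the mean or the second brightest of its probes, and without either Xpo5 siRNA array. Of 459 values of 27 named members under the alternatives, 37 had the other sign and 32 moved by over 1 SE, and 12 of the 27 kept their sign throughout. Official RefSeq symbols in place of array names, an alternative chosen after seeing the data, gave 3 passing genes of 13923. The number of arrays limits the precision. In simulated data with independent noise and 200 of 16912 genes changed, a 2-fold change was recovered for 0% of the changed genes. That figure holds for this setting alone.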
